A study of Bos taurus with 23 samples.

Results

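A group of 217 genes of the bovine endometrium, of 18897 in the table, had less messenger RNA after 6 h with interferon tau and also after 6 h with a Day 15 conceptus than after 6 h in medium alone. They were chosen by their own levels, in CPM, the read count scaled to the library's total. The mean Control level had to be at least 3 CPM, which 11867 genes met. The mean level with interferon tau had to be at most 0.75 times the Control mean, which left 503, and it had to be lower than Control in all 6 uteri that gave both explants, which left 301. The means with each kind of conceptus had to be under 0.9 times Control, which left the 217, while 84 of the 301 did not meet this last limit. Since IFNT, AI, IVF and Control levels chose the genes, the differences between these treatments and Control are given as a description, and where calls of a fit are printed for them, nothing is read from those calls.

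Each library came from 1 explant of intercaruncular endometrium, the lining that lies between the sites of placental attachment, taken in the middle of the luteal phase. All explants shared the same RPMI medium. IFNT explants were given ovine interferon tau, a recombinant protein, at 100 ng per mL (n = 6), AI explants a Day 15 conceptus that grew from a transferred blastocyst of in vivo origin (n = 4), IVF explants a Day 15 conceptus that grew from a transferred blastocyst produced in vitro (n = 7), and Control explants nothing more (n = 6). The AI conceptuses were 3 females and 1 male of 21 to 31 mm, and the IVF conceptuses 2 females and 5 males of 8 to 54 mm. The titles number the uteri, and libraries are named here by group and uterus number. Besides the uterus, titles hold a code that the labels do not explain. All 4 AI libraries had the same code, and 5 codes were found among the 7 IVF libraries. Whether conceptuses with the same code share a source is not given.

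The trophoblast of an elongating ruminant conceptus secretes interferon tau, which belongs to the type I interferons. It binds the type I interferon receptor, acts through STAT transcription factors and is known above all for raising interferon-stimulated genes in the endometrium. In sheep and cattle it is also known to hold down the estrogen and oxytocin receptors of the uterine epithelium, by which it prevents the release of luteolytic prostaglandin pulses. The table gives Ensembl identifiers alone, and 0 of them could be paired with a gene symbol here. The members are therefore described by their levels and ranks, with no statement on what any of them does, and neither the tissue label nor the cell types in an explant were checked against markers. In whole explants, fewer cells of a type and less RNA per cell cannot be told apart.

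Total counts lay between 19461678 and 36730378 per library. Both libraries IFNT 2 and IVF 5 stood apart: their deviations from the group means, across the 11867 genes at 3 CPM or more, were closest to each other (r = 0.58) rather than to explants of their own uteri. They also held the lowest share of counts in the members within their groups, at 0.795% in IFNT 2 and 0.920% in IVF 5. Without both, the same limits chose 249 genes, of which 166 were among the 217.

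The limit of 3 CPM in Control kept rare transcripts out of the members. Their Control level had a median of 26.2 CPM, with quartiles of 9.60 and 77.1, beside a median of 26.4 CPM over the 11867 genes at 3 CPM or more. A Control level under 10 CPM was found in 57 members, one from 10 to 100 CPM in 117, and one of 100 CPM or more in 43. Together the members took 1.14% ± 0.20 of the counts in IFNT libraries (SD, n = 6), 1.18% ± 0.14 in AI libraries (SD, n = 4), 1.20% ± 0.21 in IVF libraries (SD, n = 7) and 1.72% ± 0.16 in Control libraries (SD, n = 6). The highest share in a treated library was 1.41%, in IVF 10, and the lowest in a Control library was 1.51%, in Control 2. Without IFNT 2 and IVF 5 the shares were 1.21% ± 0.11 in IFNT libraries (SD, n = 5) and 1.25% ± 0.18 in IVF libraries (SD, n = 6).

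Most members were lowered by a small amount. The ratio of the IFNT mean to the Control mean had a median of 0.686 over the members and was above 0.5 in 198 of them. The median ratio was 0.700 with AI and 0.698 with IVF. Over the 11867 genes the same medians were 0.939 with IFNT, 0.922 with AI and 0.912 with IVF, so the typical gene also lay below Control on this scale. IFNT was at most 0.5 times Control in 19 members, AI in 36 and IVF in 25. Among the 19, AI and IVF were both at most 0.5 times Control in 13, and both were over 0.6 times Control in 4. In a further 8 members both conceptus groups were at most 0.5 times Control while IFNT was above 0.5. Both conceptus ratios were below the IFNT ratio in 66 members and both were above it in 110, and the other 41 had one on each side. The limit on IFNT was stricter than that on the conceptus groups, so nothing is read from these counts.

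**Figure D1:**
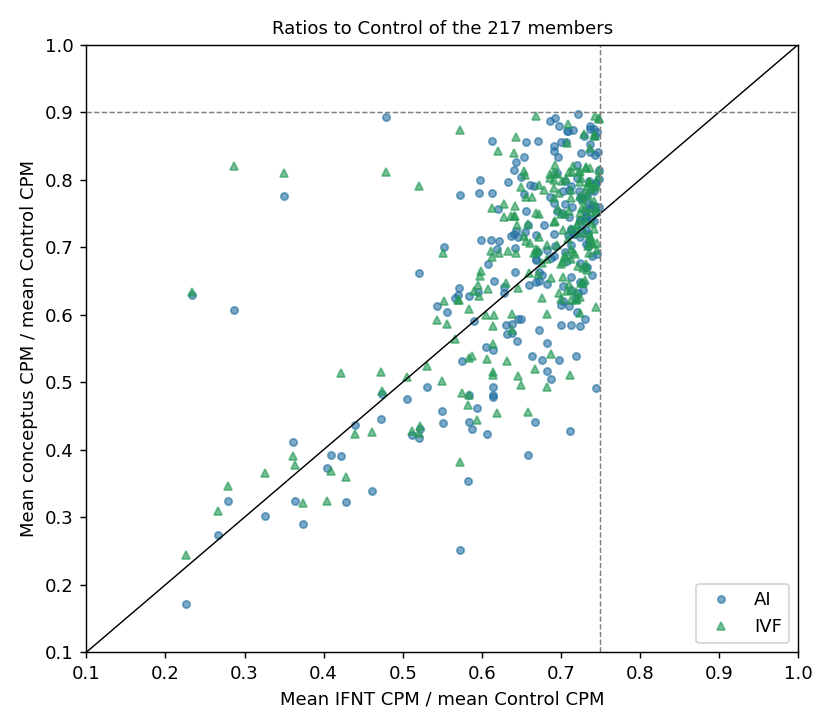
The 217 members, each drawn at its mean IFNT CPM over mean Control CPM (x axis) and at its mean AI (circle) or IVF (triangle) CPM over mean Control CPM (y axis). Dashed lines mark the limits of 0.75 and 0.9 that chose the members, and the solid line marks equal ratios. Most points crowd between 0.6 and the limits, and of the 10 members at or under 0.4 with IFNT, 3 have both conceptus ratios above 0.6 and the others lie near the line.

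The limit passed through a dense range of values. The members nearest to it had IFNT over Control ratios of 0.7488 and 0.7488, and the nearest genes beyond it, which met every other condition, had ratios of 0.7509 and 0.7511. The number of members also depended on the scaling of the libraries. On CPM scaled by TMM, which sets libraries level by the bulk of their genes, 114 genes met the limits, and all 114 were among the 217. The median of the 11867 genes in single IFNT libraries was -0.19 to -0.02 from the Control explant of the same uterus on the log2 scale, and after TMM it was -0.06 to 0.01. The members' median in these libraries was -0.73 to -0.47 before and averaged -0.50 ± 0.13 after TMM (SD, n = 6). The other members met the limits on CPM by library total and not on TMM-scaled CPM.

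ENSBTAG00000008735 had the lowest ratio with IFNT and also the lowest average ratio with a conceptus. It was at 5.83, 8.44, 9.48, 4.04, 5.20 and 6.19 CPM in IFNT 1, 2, 3, 4, 5 and 10, and at 4.40, 5.00, 6.43 and 3.95 CPM in AI 1, 2, 3 and 4. It was at 6.10, 3.94, 10.5, 11.2, 7.36, 5.85 and 4.24 CPM in IVF 1, 2, 3, 4, 5, 7 and 10, and at 36.6, 35.9, 37.2, 25.9, 19.1 and 18.3 CPM in Control 1, 2, 3, 4, 5 and 10. All 17 treated libraries lay below all 6 Control libraries, whose own levels were higher in uteri 1 to 3 than in uteri 5 and 10. Its log2 fold change was -2.08 ± 0.29 (SE) with IFNT, -2.44 ± 0.34 (SE) with AI and -1.91 ± 0.27 (SE) with IVF, on 104 to 376 reads per treated library. The members most like it in their deviations from the group means had r = 0.69 and r = 0.65 over the 23 libraries, which share uteri and scaling.

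ENSBTAG00000017718 had the second lowest ratio with IFNT, and its mean ratios with a conceptus were higher. It was at 1.31, 0.328, 0.833, 0.931, 0.482 and 0.867 CPM in IFNT 1, 2, 3, 4, 5 and 10, and at 2.99, 2.26, 1.75 and 1.52 CPM in AI 1 to 4. It was at 0.848, 1.31, 0.890, 4.50, 0.468, 6.83 and 0.138 CPM in IVF 1, 2, 3, 4, 5, 7 and 10, against 2.31, 1.82, 8.30, 4.60, 1.88 and 1.39 CPM in Control 1, 2, 3, 4, 5 and 10. The IFNT libraries lay below every Control library, while AI and IVF libraries overlapped Control. The IVF mean of 2.14 CPM is raised by IVF 4 and IVF 7. By the median, IVF was at 0.890 CPM, close to the 0.850 CPM of IFNT. These levels rest on as few as 8 reads in an IFNT library and 4 in an IVF library, and the Control mean of 3.38 CPM is raised by Control 3. Its log2 fold change was -2.04 ± 0.68 (SE) with IFNT, -0.61 ± 0.73 (SE) with AI and -0.56 ± 0.62 (SE) with IVF.

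The member with the fifth lowest IFNT ratio likewise had a lower mean with IFNT than with a conceptus. It averaged 8.57 ± 5.71 CPM in IFNT (SD, n = 6), 18.2 ± 11.8 CPM in AI (SD, n = 4), 24.5 ± 34.9 CPM in IVF (SD, n = 7) and 29.9 ± 21.2 CPM in Control (SD, n = 6). The IVF mean rests on IVF 4, at 102 CPM, where the other IVF libraries held 4.81 to 23.9 CPM. The levels of this gene followed the uterus, and within IFNT and within Control they ranged from 2.50 to 17.0 CPM and from 6.94 to 58.4 CPM. By contrast, the sixth in rank was low under all 3 treatments. It lay between 7.37 and 19.2 CPM in IFNT, between 6.31 and 15.1 CPM in AI, between 7.54 and 21.0 CPM in IVF and between 25.6 and 47.8 CPM in Control, without overlap between treated and Control libraries.

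The members ranked 3 and 4 by IFNT ratio were genes of low level that were low with a conceptus too. The third averaged 2.84 ± 1.62 CPM in IFNT (SD, n = 6), 2.92 ± 1.79 CPM in AI (SD, n = 4), 3.30 ± 1.91 CPM in IVF (SD, n = 7) and 10.7 ± 5.12 CPM in Control (SD, n = 6). The next in rank averaged 1.73 ± 1.07 CPM in IFNT, 2.14 ± 1.55 CPM in IVF and 6.18 ± 3.13 CPM in Control, with the same n, and lay between 0.598 and 3.54 CPM in AI. In both genes treated and Control libraries overlapped, through Control 5 at 2.56 CPM in the one and through Control 1 and Control 2, at 2.16 and 3.78 CPM, in the other. The member with the third lowest conceptus ratio was more abundant and did not overlap. It lay between 21.5 and 35.7 CPM in IFNT, between 14.1 and 26.8 CPM in AI and between 17.6 and 32.1 CPM in IVF, against 43.4 to 115.6 CPM in Control.

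At the other end, the 3 members with the highest conceptus ratios were close to Control with a conceptus. The highest, which was also rank 4 in abundance, averaged 382 ± 88.6 CPM in IFNT (SD, n = 6), 445 ± 119 CPM in AI (SD, n = 4), 461 ± 139 CPM in IVF (SD, n = 7) and 515 ± 44.3 CPM in Control (SD, n = 6). Its log2 fold change was -0.35 ± 0.23 (SE) with IFNT, -0.10 ± 0.25 (SE) with AI and -0.01 ± 0.22 (SE) with IVF. The differences with a conceptus were within these errors, which come from a fit without the uterus and include differences between uteri.

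The most abundant member varied widely between explants. It was at 2469, 1126, 2727, 2472, 1522 and 2646 CPM in IFNT 1, 2, 3, 4, 5 and 10, and at 2383, 2204, 2905 and 2064 CPM in AI 1 to 4. It ranged from 1081 CPM to 3512 CPM in IVF libraries, with a median of 2882 CPM, against 2752, 2625, 3775, 3316, 2851 and 3418 CPM in Control 1, 2, 3, 4, 5 and 10. Every treatment group overlapped Control, and IVF 10 stood above the Control explant of its own uterus. The lowest IFNT value came from IFNT 2 and the lowest IVF value from IVF 5. The third in abundance was separated more clearly. It lay between 262 and 487 CPM in IFNT, between 260 and 417 CPM in AI and between 261 and 431 CPM in IVF, against 519 to 632 CPM in Control.

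**Figure D2:**
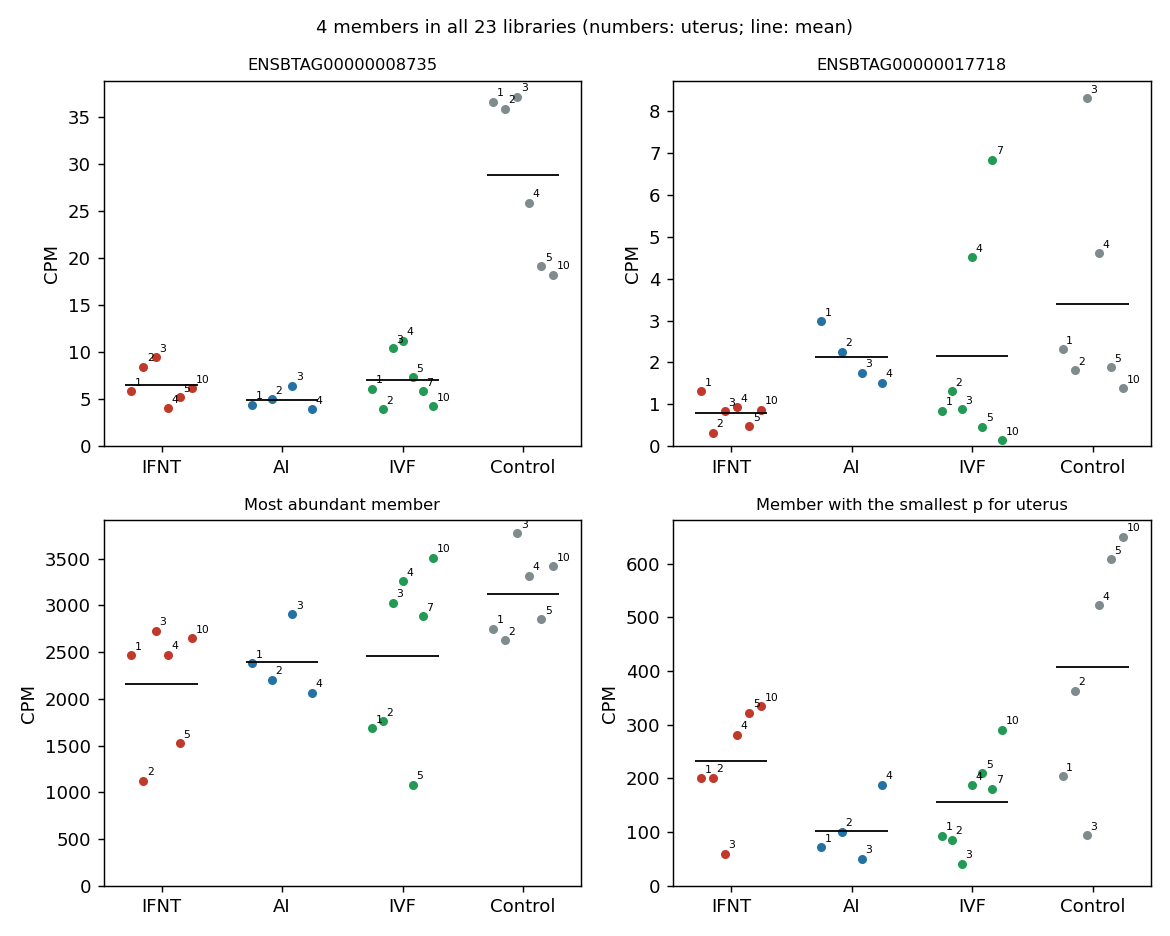
CPM (y axis) of 4 members in the IFNT, AI, IVF and Control libraries (x axis). Each point is a library with its uterus number and each line a group mean. ENSBTAG00000008735 is below Control in every treated library, ENSBTAG00000017718 is below every Control library in IFNT only, and in both lower panels the groups overlap while the uteri keep much of their order.

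Separation from Control was found in few members. Every IFNT library lay below every Control library in 32 of the 217, where 0.615% of the 11867 genes did so. Every AI library lay below every Control library in 56, where 4.9% of the genes did so, and every IVF library in 36, where 1.46% of the genes did so. All 17 treated libraries lay below all Control libraries in 16 members, where 0.219% of the genes did so. In edgeR's quasi-likelihood test with Benjamini-Hochberg adjustment over all genes, all 217 members passed the filter on low counts and 20 were called lower with IFNT, where 0.144% of the 15227 genes tested were. With AI 20 members were called lower, where 0.407% of the genes were, and with IVF 27, where 0.447% of the genes were. Nothing is read from these shares, because the same levels chose the members. With the uterus as a paired block in the model the counts were 111 with IFNT, 86 with AI and 85 with IVF, where 1.12%, 3.77% and 2.23% of the genes were called lower. With the block left out of the model, the IFNT count was 9 when either Control 1 or Control 3 was dropped. It was 12 when IFNT 2 was dropped and 11 when IFNT 4 was dropped. In these 4 fits 0.0592%, 0.0658%, 0.0856% and 0.0723% of the genes tested were called lower. The AI count was 13 without Control 1 and 12 without AI 4, where 0.25% and 0.182% of the genes were called lower. The IVF count was 14, 16 and 13 without Control 1, 2 and 3, where 0.178%, 0.237% and 0.263% of the genes were. It was 16 without IVF 1 or IVF 2, where 0.343% and 0.322% of the genes were.

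The decrease was read next in single explants, as a description, since these values chose the genes under limits that differ between IFNT and the conceptus groups. Against the Control explant of the same uterus, the members' median log2 difference was -0.53, -0.73, -0.63, -0.53, -0.48 and -0.47 in IFNT 1, 2, 3, 4, 5 and 10. It was -0.48, -0.44, -0.66 and -0.54 in AI 1 to 4, and -0.68, -0.58, -0.63, -0.34, -0.64 and -0.46 in IVF 1, 2, 3, 4, 5 and 10. The deepest value was that of IFNT 2 and the shallowest that of IVF 4. The limits required every member to be below Control in every IFNT library. With a conceptus, where they did not, 190 to 209 members were below Control in single AI libraries and 186 to 211 in single IVF libraries. Of the 11867 genes at 3 CPM or more, 53.5% to 62.5% were below Control in AI libraries and 58.9% to 68.8% in IVF libraries. On TMM-scaled CPM the members below Control numbered 182 to 203 in AI libraries and 162 to 208 in IVF libraries.

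**Figure D3:**
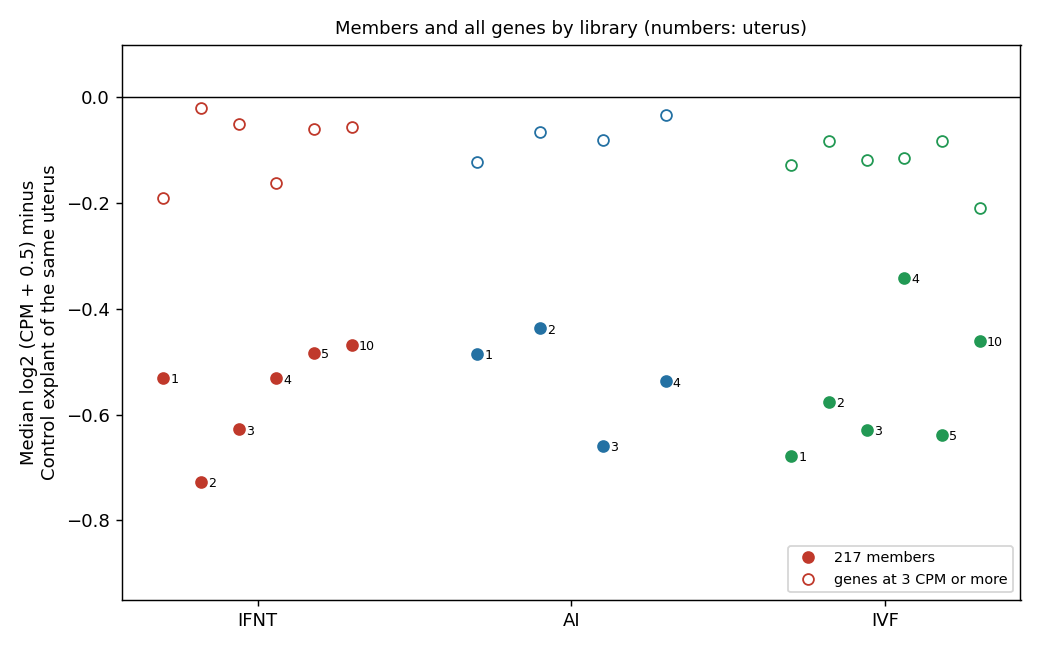
Median difference on the log2 (CPM + 0.5) scale (y axis) between each IFNT, AI or IVF library (x axis) and the Control explant of the same uterus, which is at 0. Filled points are the 217 members, with the uterus number beside them, and open points are the 11867 genes with 3 CPM or more in Control; the members lie between -0.73 and -0.34 and the open points between -0.21 and -0.02. IVF 7 has no Control explant and is not drawn.

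To read the decrease in explants that took no part in the choice, the choice was repeated without 1 uterus at a time and the chosen genes were read in the uterus left out. This chose 221 to 308 genes, of which 167 to 201 were among the 217. Their median log2 difference between IFNT and Control in the uterus left out was -0.40, -0.43, -0.40, -0.40, -0.34 and -0.28 in uteri 1, 2, 3, 4, 5 and 10, a mean of -0.38 ± 0.05 (SD, n = 6). All genes at 3 CPM or more had -0.09 ± 0.07 (SD, n = 6) in the same uteri. Of the chosen genes, 80.0% to 92.1% were lower with IFNT than in Control in the uterus left out. Of the 11867 genes at 3 CPM or more, 51.7% (IFNT 2) to 74.1% (IFNT 1) were lower in the same libraries. The decrease in explants not used for the choice was thus present in all 6 uteri and smaller than the -0.56 ± 0.10 (SD, n = 6) of the members in the explants that chose them.

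The same genes were read with a conceptus in the uterus left out. They differed from Control by -0.42 ± 0.09 with AI (SD, n = 4) and by -0.43 ± 0.10 with IVF (SD, n = 6), where genes at 3 CPM or more differed by -0.07 ± 0.04 and -0.12 ± 0.05. These values share the Control explant of the uterus with the IFNT value. The direct difference between conceptus and IFNT does not. It was -0.03 ± 0.10 for AI minus IFNT (SD, n = 4) and -0.06 ± 0.11 for IVF minus IFNT (SD, n = 6), and both means were smaller than their spread between uteri. Over the genes at 3 CPM or more the same differences were 0.02 ± 0.07 and -0.05 ± 0.08.

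**Figure D4:**
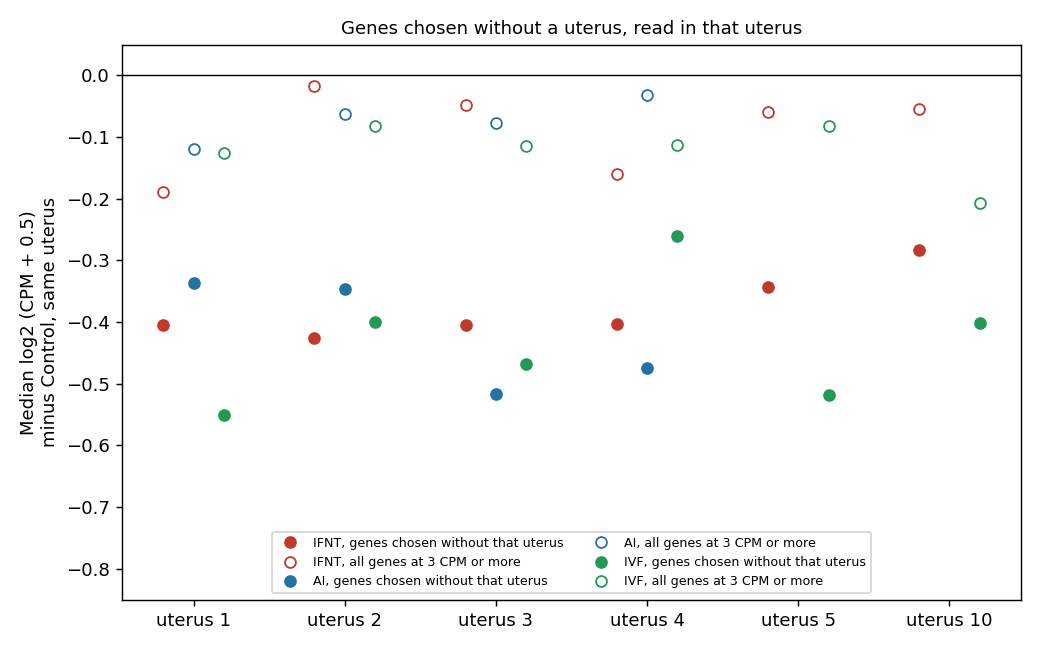
For each uterus (x axis), genes chosen by the same limits without any library of that uterus, read as the median log2 (CPM + 0.5) difference to its Control explant (y axis) in its IFNT, AI and IVF explants (filled points), beside the genes with 3 CPM or more (open points). Filled points lie between -0.55 and -0.26 and open points between -0.21 and -0.02. Uteri 5 and 10 had no AI explant.

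The origin of the conceptus was compared next, since the limits set no condition on their difference, although requiring both to be under the same limit favours genes in which they are alike. All 4 AI libraries held the same title code, which no IVF library held, so origin and code cannot be told apart. No member was called between AI and IVF by edgeR's quasi-likelihood test, where 0.0% of the 15227 genes were called, and DESeq2 and the model with the uterus as a paired block also called 0. At an unadjusted p under 0.05 there were 2 members, where 2.25% of all genes passed, and both were lower with AI. With the block 8 members passed that level, where 8.24% of all genes did. The log2 fold change of AI over IVF had a median of -0.05 over the members, with quartiles of -0.14 and 0.04, beside -0.01 over all genes tested. It ranged from -0.69 to 0.61, with a median SE of 0.25, which is larger than the median size of 0.10 of the members' differences. This SE comes from the fit without the block, so it includes differences between uteri. The member with the smallest p was at 3.81, 4.58, 4.11 and 3.63 CPM in AI 1 to 4 and at 11.2, 4.32, 6.20, 8.84, 4.21, 3.97 and 5.62 CPM in IVF 1, 2, 3, 4, 5, 7 and 10. The groups overlapped, and its log2 fold change was -0.69 ± 0.30 (SE, edgeR adjusted p = 1.00).

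The sex of the conceptus was not associated with a called difference in any member. Sex went partly with origin, as 5 of the 6 male conceptuses were IVF and 3 of the 5 female ones AI. The main fit for sex had no term for origin. A fit of the conceptus libraries alone with origin as a term also called 0 members. For Male over Female explants edgeR called 0 members, where 0.0% of 15099 genes were called, and DESeq2 and the paired block called 0 as well. At an unadjusted p under 0.05 there were 4 members, 3 higher and 1 lower with a male conceptus, where 7.21% of all genes passed. With the block there were 20, 1 higher and 19 lower, where 11.6% of all genes passed. The median log2 fold change was 0.03 over the members. A positive value was found in 116 of them and a negative one in 101, where 49.5% of all genes tested had a negative value. With the uterus as a paired block the median was -0.11, and 159 members had a negative value, where 51.5% of all genes tested did. The direction was thus not stable. For the member with the smallest p the log2 fold change was -0.70 ± 0.23 (SE), with an adjusted p of 0.642 in edgeR. It lay between 1.66 and 3.03 CPM in the 6 explants with a male conceptus and between 2.97 and 5.14 CPM in the 5 with a female one, which overlapped by 1 explant on each side.

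Conceptus length, tested as a slope on log2 mm within the 11 conceptus libraries with origin as a term, gave no called member either. By edgeR 0 members passed, where 0.0% of 14822 genes did, and DESeq2 and the fit with the uterus as a block called 0. The block left few residual degrees of freedom in these 11 libraries, so nothing is read from the 0 of that fit. At an unadjusted p under 0.05 there were 12 members, or 5.53%, where 3.11% of all genes passed, and 11 of the 12 had a positive slope. The slope was positive in 168 of the 217 members and negative in 49, where 48.4% of all genes tested had a negative slope. The members' median change was 0.12 on the log2 scale per doubling of length, beside 0.01 over all genes tested. The longest conceptuses, of 54 and 33 mm, were in uteri 7 and 5. The members share explants, and the count of positive slopes is a description of these 11 libraries. The member with the smallest p had a negative slope of -0.53 ± 0.15 (SE, edgeR adjusted p = 0.998). It was at 6.25 CPM with the 8 mm conceptus and 2.26 CPM with the 54 mm one, both IVF. In AI 1 to 4, ordered from the longest conceptus to the shortest, it was at 5.85, 5.41, 3.39 and 5.40 CPM, with no such fall.

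**Figure D5:**
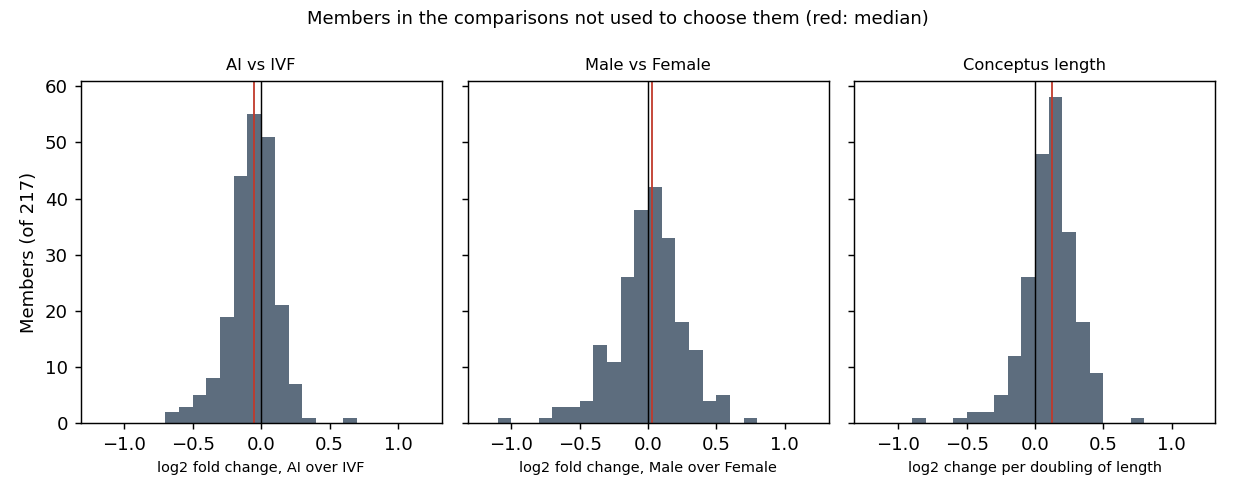
Number of members (y axis) by their log2 fold change of AI over IVF, of Male over Female, and by their log2 change per doubling of conceptus length (x axes). The red lines mark the medians at -0.05, 0.03 and 0.12 and the black lines mark 0; edgeR called 0 members in each comparison.

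Many members differed between uteri. The limits set no condition on levels between uteri, but they required IFNT to be below Control within each of the 6 uteri. This can favour genes that vary little within a uterus, so part of an excess over all genes may come from the choice. How large that part is was not tested. With treatment as a term, edgeR's quasi-likelihood test called 165 of the 217 members different between uteri 1, 2, 3, 4, 5 and 10, or 76.0%, where 57.2% of the 15204 genes tested and 62.4% of the 11867 genes at 3 CPM or more were called. At an unadjusted p under 0.05 there were 173 members, where 64.4% of the genes tested passed. With only the Control and IFNT libraries in the fit, 109 members were called, where 31.2% of the 14491 genes tested were. Differences between uteri accounted for a median of 66.4% of each member's spread within groups, beside 63.4% over the genes at 3 CPM or more. The member with the smallest p (edgeR adjusted p = 2.19e-06) was at 200, 201, 59.7, 281, 322 and 334 CPM in IFNT 1, 2, 3, 4, 5 and 10 and at 71.3, 100.3, 49.9 and 188 CPM in AI 1 to 4. It was at 92.9, 85.4, 41.1, 187, 209, 180 and 290 CPM in IVF 1, 2, 3, 4, 5, 7 and 10, against 204, 363, 94.4, 523, 608 and 650 CPM in Control 1, 2, 3, 4, 5 and 10. Uterus 3 was lowest in all 4 groups, and uterus 10 was highest in IFNT, IVF and Control. In uterus 1 IFNT and Control were close, while in the other 5 uteri IFNT lay further below Control. In this member the ratio to Control was 0.572 with IFNT, 0.252 with AI and 0.381 with IVF.

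As a set, the members lay above their group means in uterus 1 and below them in uterus 2. The median deviation on the log2 scale was 0.13, -0.18, 0.10, -0.08, -0.07 and 0.07 in uteri 1, 2, 3, 4, 5 and 10. Over the genes at 3 CPM or more it was 0.01, 0.05, -0.09, -0.03, 0.12 and -0.02 in the same uteri. A deviation above 0 was found in 156 members in uterus 1 and in 48 in uterus 2. Uterus 2 includes IFNT 2 and uterus 5 includes IVF 5, the libraries that stood apart. The members moved together only in part. Their deviations from the group means had a median pairwise r of 0.15 over the 23 libraries, beside 0.05 for pairs of genes at 3 CPM or more, and r was over 0.5 in 16.2% of the pairs of members and in 12.5% of the pairs of all such genes. The libraries share uteri and scaling, and these values carry no test.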

How the data were processed

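The authors deposited raw read counts of 18897 genes in 23 libraries, made with a stranded mRNA kit per the labels' protocols. HISAT2, StringTie, edgeR and the build UMD3.1 are named in the submitters' processing notes; how reads were counted is not given in the sources used here, so overlapping genes and near-identical copies can share reads. Each column was matched to its sample by its name in the labels. No 2 libraries agreed within sampling noise (chi-square per degree of freedom of 21.3 or more in all 253 pairs).

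CPM here are counts over the column total. The rule's 2 left-out identifiers are not reported here. The members and gene lists were chosen with earlier results of these data known. The named-gene rule was the 6 lowest IFNT ratios, the 4 highest Control levels, the 3 lowest and 3 highest conceptus ratios, the 3 called members with the smallest p per tested comparison, or the 2 with the smallest p where none was called, and the genes nearest the limit. Without symbols, 2 identifiers, those with the lowest IFNT ratio, are printed, and the gene and marker lists could not be used. Log2 values of CPM use a pseudocount of 0.5.

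Counts were tested in R 4.3.3 with edgeR 4.0.16 (filterByExpr, TMM, quasi-likelihood F test, adjusted p under 0.05) with 4 groups in 1 fit. Only the test of AI against IVF was run on simulated data, and the tests for sex, length and uterus were not. DESeq2 1.42.0, other scalings, no filter, and fits without each library were alternatives. SE is the log2 fold change over the root of its F, from the fit without the uterus, so it includes differences between uteri. Same-numbered libraries deviated together in all 30 pairs (r = 0.20 to 0.79), so the titles' numbers pair the libraries, and the fit with the uterus as a paired block is given where it changed a count. Per the labels, p-values measure the spread between explants, of which several come from 1 uterus.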

Additional observations from a re-analysis of the deposited data

Results flagged for a closer look

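Among the members described one by one, the one with the fifth lowest IFNT ratio was flagged because IVF 4, at 102.3 CPM, lay far from the other IVF libraries, of which the next was at 23.93 CPM. The IVF conceptus of that library was 19 mm long, and the Control explant of the same uterus was the highest of the Control libraries, at 58.4 CPM. A second member, with the second smallest p for conceptus length, was flagged because AI 3, at 53.81 CPM, lay apart from the other AI libraries, of which the next was at 40.11 CPM. Chance flags about 1 in 20 groups, and 2 of the 92 groups examined were flagged.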

How the results depend on the processing

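The number of genes chosen was 114 with TMM-scaled CPM and 126 with median-ratio size factors, 96 and 434 with an IFNT limit of 0.67 and 0.8, 121 with a conceptus limit of 0.75, and 336 without a condition on pairs, against 217 as described; leaving out single libraries or uteri gave 210 to 324. Members called lower with IFNT, AI and IVF numbered 111, 86 and 85 with the uterus as a paired block (replicate block). In that fit 1.12%, 3.77% and 2.23% of all genes tested were called lower. The members called lower numbered 35, 39 and 41 in DESeq2, where 44, 153 and 141 of all genes, or 0.289%, 1% and 0.926%, were called lower. With only the groups compared in the fit the IFNT count was 12, where 0.0897% of all genes tested were called lower. Leaving out single libraries gave 9 to 26 for IFNT, 12 to 27 for AI and 13 to 31 for IVF. Of all genes tested, 0.0592% to 0.191%, 0.182% to 0.572% and 0.178% to 0.572% were called lower in these fits. For uterus, 109 members were called with only Control and IFNT libraries, where 31.2% of all genes tested were, and 132 to 160 without single uteri, where 44.2% to 54.8% were. The cause of these changes was not tested. AI vs IVF, Male vs Female and conceptus length gave 0 called members under all alternatives run, the replicate block included. For length, that block left few residual degrees of freedom. The median log2 difference of IFNT in the uterus left out was -0.40, and -0.35 (IFNT over Control) when the genes were chosen without the limits on AI and IVF; leaving out single uteri gave -0.40. Without IFNT 2 and IVF 5, a setting added after seeing the data, the calls for IFNT, AI, IVF and uterus were 14, 30, 25 and 160. Of all genes tested, 0.099%, 0.607%, 0.554% and 60.7% were called in these fits. Depth limits the rarest members, such as ENSBTAG00000017718, which had 4 to 251 reads per treated library.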
